A study of Mus musculus with 12 samples.

Results

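The pancreatic digestive proteases followed here were 9 genes, the carboxypeptidases Cpa1 and Cpb1, the elastases Cela1, Cela2a and Cela3b, the chymotrypsins Ctrb1, Ctrc and Ctrl, and the trypsinogen Prss3. Every probe set that the platform annotation ties to 1 of these symbols and to no other gene was taken, without regard to its values. This gave 12 of the 45101 probe sets on the array and 9 of the 18194 genes that have such a probe set. Cela3b was read by 4 probe sets and each of the other 8 genes by 1.

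The arrays were Affymetrix mouse arrays hybridised with total RNA from mouse pancreas, 12 in all and 4 in each of 3 groups, lettered A to D. yDucts were ductal organoids that arose from acini of R26-rtTA; tetO-YAP S127A mice once doxycycline had switched on YAP S127A, an active form of the transcriptional effector of the Hippo pathway. The transgene is driven through a reverse transactivator at the ubiquitous Rosa26 locus and not by an acinar promoter, and per the study's methods the organoids could later be passaged without doxycycline. Ducts were organoids grown out of native duct fragments, and both organoid groups were kept in Matrigel under the same organoid medium with EGF, Noggin, FGF10, R-Spondin1, gastrin and nicotinamide. Acini, the clusters of exocrine cells that secrete enzymes, were freshly isolated from adult mice and never cultured. The genotype behind the Ducts and Acini arrays, whether the yDucts were 1 clonal line, and how long doxycycline had been absent are details that the sources used here do not give. The labels call the 4 arrays of a group biological replicates, but whether these were separate animals or cultures is not given either, so p-values measure the spread among these arrays.

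Digestive proteases are made by acinar cells as inactive zymogens, packed into zymogen granules and secreted into the ducts. In the intestine, trypsin cuts and activates the others. Trypsins cut after basic residues, chymotrypsins after large hydrophobic ones and elastases after small ones, while carboxypeptidases, which are zinc enzymes, trim single residues off the C-terminal end. In acinar cells the transcription of these genes depends on PTF1, a complex of the acinar factor PTF1A, a widely expressed E protein and RBPJ or its acinar relative RBPJL. PTF1 binds a bipartite element made of an E-box and a TC box, and the nuclear receptor NR5A2 acts on many of the same genes.

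The sequence in front of these genes is shown because they moved together, as described below, and because PTF1 elements were first described at such genes. RefSeq promoters of 250 bases before and 50 bases after the annotated start (GRCm38.p6) were found for 8 of the 9 genes, Ctrc being the exception. Both strands were searched for the E-box CANNTG, for its form CACCTG, which every CACCTG match shares with CANNTG, for the TC box TTTCCC, for the NR5A2 site AAGGTCA and for the TATA box TATAAA. The 120 bases given run 5′ to 3′ and end at the base before the start, except for Ctrb1, where they end 101 bases before it. Capitals mark the CACCTG form of the E-box, the TC box, the NR5A2 site and the TATA box on either strand, and each other E-box whose first base lies 6 to 30 bases from that of a TC box. Cela1, Ctrb1 and Cpa1 are shown for such a pair, Cela3b for 2 copies of CACCTG and Prss3 for its TATA box.
Cela1, chr15:100687921-100688040, minus strand: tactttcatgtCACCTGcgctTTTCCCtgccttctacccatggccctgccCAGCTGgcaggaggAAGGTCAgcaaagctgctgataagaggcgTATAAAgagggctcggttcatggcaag
Ctrb1, chr8:111691111-111691230, minus strand: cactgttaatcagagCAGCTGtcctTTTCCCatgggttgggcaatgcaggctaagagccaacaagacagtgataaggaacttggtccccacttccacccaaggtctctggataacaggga
Cpa1, chr6:30639098-30639217, plus strand: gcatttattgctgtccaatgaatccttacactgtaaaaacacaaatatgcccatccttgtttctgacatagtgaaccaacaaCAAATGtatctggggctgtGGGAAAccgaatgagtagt
Cela3b, chr4:137430521-137430640, minus strand: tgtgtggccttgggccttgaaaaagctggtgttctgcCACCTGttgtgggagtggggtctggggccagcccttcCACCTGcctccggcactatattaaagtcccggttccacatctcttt
Prss3, chr6:41377614-41377733, minus strand: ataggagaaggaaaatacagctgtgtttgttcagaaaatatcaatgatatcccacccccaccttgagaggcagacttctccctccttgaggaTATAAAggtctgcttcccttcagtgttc

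In Cela1, CACCTG and TTTCCC began 109 and 99 bases before the start, 10 bases apart, and AAGGTCA and TATAAA followed downstream. Ctrb1 had CAGCTG and TTTCCC at the same spacing of 10 bases, 205 and 195 bases before its start. Cpa1 had CAAATG and GGGAAA, the TC box on the other strand, 19 bases apart. An E-box within 30 bases of a TC box was present in 3 of the 8 promoters (37.5%), against 5.44% of all 32851 RefSeq promoters of that length. CACCTG was present in 6 of 8 (75%), against 20.2% of all, the exceptions being Cpa1 and Ctrb1. The TC box was found in 4 of 8 (50%, against 25.2% of all), TATAAA in 3 of 8 (37.5%, against 13.6%) and AAGGTCA in 1 of 8 (12.5%, against 4.72%). Any E-box was found in 8 of 8, against 72.3% of all promoters. These are matches of letters in a short window, and binding was not measured.

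The genes lie on 5 chromosomes, with Cpa1 and Prss3 on chromosome 6, Cela2a, Cela3b and Ctrc on chromosome 4, Ctrb1 and Ctrl on chromosome 8, Cpb1 on chromosome 3 and Cela1 on chromosome 15. Among protein-coding genes in RefSeq, Cpa1 lies next to Cpa5, Cpb1 next to Cpa3, Cela3b next to Cela3a, and Prss3 between Try10 and Gm5771. Ctrc is listed there as a transcribed pseudogene and the other 8 genes as protein-coding.

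All 12 arrays reached similar brightest values, from 14.66 to 14.85 on the log2 scale. In the dim range they differed by group: the 30th percentile, taken here as the background, was 3.20 ± 0.01 in yDucts, 3.21 ± 0.02 in Ducts and 3.72 ± 0.06 in Acini (mean ± SD, n = 4). The Gapdh control probe sets read -0.15 ± 0.02 (log2, 3′ minus 5′ end) in yDucts, -0.04 ± 0.04 in Ducts and 1.54 ± 0.29 in Acini, so the 3′ excess was larger on the Acini arrays, and its part in the differences was not tested. Within groups, arrays correlated at 0.9896 to 0.9967 in yDucts and 0.9408 to 0.9622 in Acini. Ducts C and D correlated at 0.9948 and Ducts A and B at 0.9812, but arrays of the 1 pair with those of the other at only 0.9591 to 0.9732, so the calls on named genes that moved by over 1.5-fold or were lost with either pair are given with that value. Acinar markers (6 measured, Amy1, Cel, Rnase1, Ptf1a, Rbpjl and Gp2) summed to 5.91 to 6.05 in yDucts, 5.85 to 6.02 in Ducts and 15.78 to 15.91 in Acini (log2 of the sum), and 2 of the 6 averaged below background in yDucts and 4 in Ducts. Duct markers (6 measured, Krt19, Krt7, Sox9, Car2, Cftr and Epcam) summed to 13.26 to 13.90, 13.73 to 14.79 and 9.66 to 10.31 in the same groups. Sox9 and Cftr were not called against Acini in either organoid group, and the other 4 were called higher in both. The Acini arrays also carried other cell types of the tissue: endocrine markers (5 measured) summed to 11.87 to 12.51 there, stromal markers (6) to 11.74 to 12.65 and endothelial markers (5) to 9.54 to 10.25, against at most 6.24 in either organoid group. The part of these cells in the protease differences was not tested.

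All 9 protease genes read 10.91 or above on every Acini array. All were lower in both organoid groups, most of them at background or near it. Against Acini, each of the 12 probe sets was lower in yDucts and in Ducts, by 215-fold to at least 3004-fold and by 225-fold to at least 2974-fold. Most Acini values behind these folds sat at the top of the scale, where it was not tested whether levels are still separated. Of 12 probe sets, 12 were called lower in each comparison by limma at an adjusted p under 0.05, where 31.6% of all 33436 tested probe sets were called lower in yDucts (39.7% higher) and 31.2% in Ducts (40% higher). No array of either organoid group overlapped the Acini arrays at any of the 12, but the share of all tested probe sets without overlap was not counted. All 12 passed the filter on low values, which the Acini arrays alone were enough for, so that this count does not stand for the organoids. The median difference of the 12 was -11.19 in yDucts and -11.0 in Ducts, or -10.81 and -10.65 with values below background raised to it, against 0.13 and 0.16 over all tested probe sets. Only 59 probe sets in yDucts and 63 in Ducts lay more than 8 log2 units under Acini, and 11 of the 12 protease probe sets were among them in each. Both comparisons share the same Acini arrays. Acini came from tissue and the organoids from culture, so cell state and culture cannot be told apart, and in such bulk RNA neither can fewer acinar cells and less enzyme RNA in each. Ducts grew out of duct fragments and not out of acini, so their difference from Acini also includes a different starting cell.

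**Figure D1:**
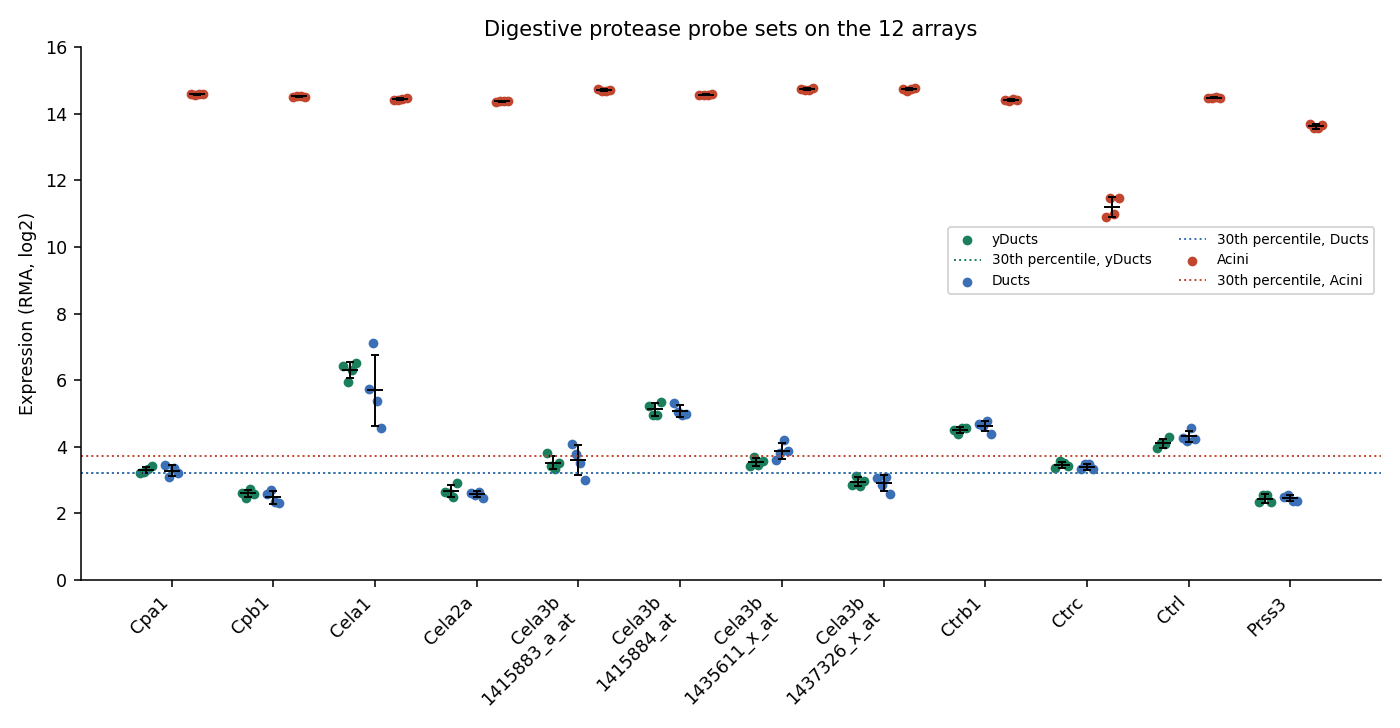
Expression (RMA, log2, vertical axis) of the 12 protease probe sets on each array, with a point for each array, bars for the mean ± SD of 4 arrays in yDucts, Ducts and Acini, and dotted lines at the 30th percentile of each group (those of yDucts and Ducts nearly coincide). Every Acini point lies at 10.91 or above and every organoid point at 7.13 or below, with Cela1 the most scattered probe set of the Ducts arrays.

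Both carboxypeptidases read at background or close to it in both organoid groups. Cpa1, which trims aromatic and aliphatic residues, read 3.22, 3.25, 3.33 and 3.42 on yDucts A to D, 3.45, 3.09, 3.37 and 3.20 on Ducts A to D, and 14.60, 14.57, 14.60 and 14.60 on Acini A to D. Both organoid means thus sat within 0.11 of the background, and the Acini arrays within 0.03 of each other. The difference from Acini was -11.29 ± 0.13 in yDucts (log2 ± SE, adjusted p = 4.51e-16, 2500-fold) and -11.32 ± 0.13 in Ducts (adjusted p = 4.58e-16, 2548-fold). Since these organoid values sat so near the background, the folds hold for the 30th percentile, and with the 40th as the background Cpa1 has only a limit, at least 1921-fold in yDucts and at least 1898-fold in Ducts. Cpb1, which trims basic residues, read 2.60, 2.46, 2.74 and 2.58 in yDucts, 2.59, 2.71, 2.34 and 2.30 in Ducts, and 14.52, 14.53, 14.54 and 14.52 in Acini. All 8 organoid values were below background, so that only a limit can be given, at least 2579-fold lower in yDucts and at least 2553-fold lower in Ducts. Cpa5, the neighbour of Cpa1, was below background in all 3 groups. Cpa3, the neighbour of Cpb1 and an enzyme of mast cells, read 3.03 ± 0.06 in yDucts, 3.09 ± 0.13 in Ducts and 4.55 ± 0.10 in Acini, at least 2.55-fold and 2.53-fold lower in the organoids.

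Among the elastases, Cela2a lay below background in both organoid groups, whereas Cela1 lay above it. Cela2a read 2.63, 2.62, 2.50 and 2.92 in yDucts, 2.62, 2.55, 2.65 and 2.46 in Ducts, and 14.35, 14.38, 14.39 and 14.39 in Acini. Again each organoid value was below background, at least 2324-fold under Acini in yDucts and at least 2301-fold in Ducts. Cela1, the elastase whose human counterpart is known from skin rather than from pancreas, read 6.43, 5.95, 6.31 and 6.50 in yDucts, 5.73, 7.13, 5.37 and 4.57 in Ducts, and 14.42, 14.42, 14.46 and 14.48 in Acini. It stood above the median of its array on all 8 organoid arrays. Its difference from Acini was -8.15 ± 0.39 in yDucts (adjusted p = 1.76e-09, 284-fold) and -8.74 ± 0.39 in Ducts (adjusted p = 8.87e-10, 429-fold). The value in Ducts moved with the pair of arrays. It was -8.015 with Ducts A and B alone, which averaged 6.43, whereas Ducts C and D averaged 4.97.

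Cela3b was lower in both organoid groups at each of its 4 probe sets, whose values are given one by one because different probe sets cannot be set against each other in level. Probe set 1437326_x_at read 2.84, 3.13, 2.83 and 2.98 in yDucts, 3.06, 2.86, 3.10 and 2.59 in Ducts, and 14.76, 14.70, 14.74 and 14.79 in Acini. Both organoid means were below background, at least 3004-fold lower in yDucts and at least 2974-fold in Ducts. Probe set 1415884_at read 5.21, 4.96, 4.96 and 5.35 in yDucts, 5.32, 5.03, 4.95 and 4.97 in Ducts, and 14.57, 14.57, 14.56 and 14.59 in Acini, and was 701-fold lower in yDucts and 727-fold lower in Ducts, with all 8 organoid values above the array median. The other probe sets, 1415883_a_at and 1435611_x_at, were 2348-fold and 2373-fold lower in yDucts and 2226-fold and 1878-fold lower in Ducts. With the 40th percentile as the background, 1415883_a_at has only a limit, at least 2059-fold in yDucts and at least 1908-fold in Ducts. So has 1435611_x_at in yDucts, at least 2131-fold. A further probe set, shared by Cela3a and Cela3b and so not counted among the 12, differed by -12.12 in both comparisons.

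The 3 chymotrypsin probe sets were lower by 215-fold to 1335-fold in yDucts and by 225-fold to 1158-fold in Ducts. Their organoid means lay above background. Ctrb1, a major chymotrypsinogen, read 4.49, 4.38, 4.57 and 4.57 in yDucts, 4.69, 4.63, 4.77 and 4.39 in Ducts, and 14.42, 14.40, 14.45 and 14.42 in Acini. It was 969-fold lower in yDucts (-9.92 ± 0.13) and 893-fold lower in Ducts (-9.80 ± 0.13), and its organoid values were just above the array median. Ctrl, the chymotrypsin-like protease, read 3.96, 4.10, 4.07 and 4.28 in yDucts, 4.25, 4.17, 4.57 and 4.24 in Ducts, and 14.48, 14.48, 14.51 and 14.47 in Acini, 1335-fold and 1158-fold lower. Ctrc, the pseudogene, whose human counterpart encodes a protease that controls trypsin activation and breakdown, read 3.35, 3.56, 3.51 and 3.43 in yDucts, 3.32, 3.47, 3.47 and 3.33 in Ducts, and 10.91, 11.47, 11.00 and 11.47 in Acini. Its probe set thus gave a clear signal in Acini, and it was 215-fold lower in yDucts (-7.75 ± 0.16, adjusted p = 1.46e-13) and 225-fold lower in Ducts (-7.82 ± 0.16, adjusted p = 1.29e-13). The organoid means of Ctrc lay only 0.267 (yDucts) and 0.188 (Ducts) above the background. With the 40th percentile as the background Ctrc has only a limit, at least 184.5-fold in yDucts and at least 182.3-fold in Ducts.

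Prss3, the trypsinogen, read 2.34, 2.55, 2.55 and 2.33 in yDucts, 2.49, 2.55, 2.37 and 2.38 in Ducts, and 13.70, 13.57, 13.57 and 13.68 in Acini. Every organoid value was below background, at least 1384-fold lower in yDucts and at least 1371-fold in Ducts. Trypsinogens form a family of similar sequence, so this probe set may not tell Prss3 from its neighbours. A probe set shared by Prss3, Prss1, Gm5771 and Gm10334, not counted among the 12, differed by -11.53 in yDucts and -11.39 in Ducts.

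In Acini the spread among arrays was very small. Leaving out Ctrc (SD 0.30) and Prss3 (SD 0.07), the SD of the other 10 probe sets lay between 0.01 and 0.04, and their means were 0.01 to 0.38 under the brightest value of the array. At the other end, 4 of the 12 probe sets (Cpb1, Cela2a, Prss3 and Cela3b 1437326_x_at) averaged below background in both organoid groups.

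The comparison of yDucts with Ducts sets organoids of acinar origin beside organoids of ductal origin. yDucts had also been induced to express YAP S127A with doxycycline, and the genotype behind Ducts is not given. Origin, genotype and induction therefore cannot be told apart here. Of the 12 probe sets, 0 were called in either direction by limma (1 at an unadjusted p under 0.05), where 2.32% of all tested probe sets were called. yDucts and Ducts overlapped at all 12, and the share of all tested probe sets that did so was not counted. The median difference was 0.035, against -0.02 over all tested probe sets. Apart from Cela1, the 7 probe sets with a measurable level in at least 1 organoid group differed by -0.34 to 0.07, and their 95% intervals ran from -0.66 to 0.41 at the widest. Of the 6 acinar markers 1 was called, the amylase gene Amy1, at 3.35 ± 0.21 in yDucts against 2.46 ± 0.19, below background, in Ducts (adjusted p = 0.00651). Most of that difference lay below background, so that only a limit can be given, at least 1.10-fold higher in yDucts. The part of the Amy1 difference in the protease values was not tested. Cpa1 differed by 0.03 (95% interval -0.26 to 0.31, adjusted p = 0.993), Ctrb1 by -0.12 (-0.40 to 0.17, adjusted p = 0.862) and Ctrl by -0.21 (-0.50 to 0.09, adjusted p = 0.627). The 1 probe set with an unadjusted p under 0.05 was Cela3b 1435611_x_at. It read 3.41, 3.68, 3.46 and 3.58 in yDucts and 3.59, 3.82, 4.19 and 3.88 in Ducts, a difference of -0.34 (-0.66 to -0.02, adjusted p = 0.345), and the other measurable Cela3b probe sets differed by -0.08 and 0.05.

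**Figure D2:**
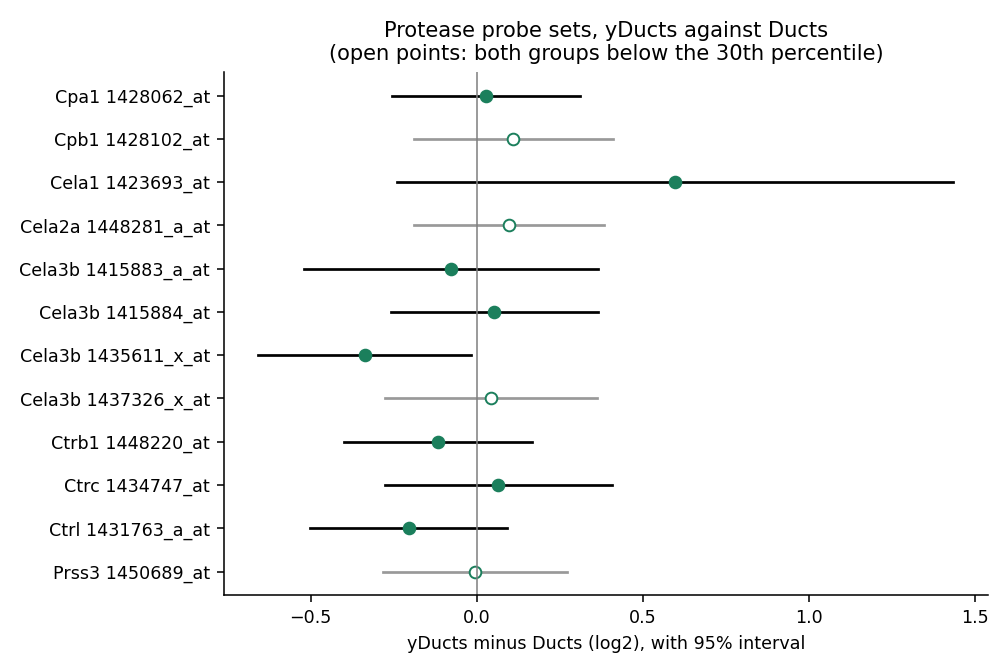
Difference of yDucts minus Ducts (log2, horizontal axis) for the 12 protease probe sets, with points for the limma estimate, lines for its 95% interval, and open points where both groups were below background. The interval of Cela3b 1435611_x_at ends just under 0 and those of the other 11 span 0, Cela1 having the widest, from -0.24 to 1.43.

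Cela1 had the widest spread of organoid values among the 12 probe sets. Next in Ducts was Cela3b 1415883_a_at (SD 0.458), which read 4.09, 3.78, 3.51 and 3.01 on Ducts A to D. Within Ducts Cela1 covered 2.56 log2 units, a 5.90-fold range, from 7.13 on Ducts B to 4.57 on Ducts D, and within yDucts 0.55, a 1.46-fold range. yDucts averaged 6.30 ± 0.24 and Ducts 5.70 ± 1.07 (SD, n = 4), a difference of 0.60 ± 0.39 (95% interval -0.24 to 1.43, adjusted p = 0.606), and the interval leaves room for a level 2.70-fold higher or 1.18-fold lower in yDucts. Ducts A and B averaged 6.43 and Ducts C and D 4.97. Against Ducts C and D alone, Cela1 was called higher in yDucts (1.33, adjusted p = 0.00282, with 12.2% of all probe sets called), and against Ducts A and B alone it differed by -0.13 (adjusted p = 0.999). It was also called without Ducts B (1.07, adjusted p = 0.0261) and with arrays weighted by their quality (1.07, adjusted p = 0.00238), where 35.2% of all probe sets were called. The summed acinar markers read 5.90 on Ducts B and 5.92 on Ducts D and spanned 0.171 over the 4 Ducts arrays, with 4 of the 6 markers averaging below background there. The part of any acinar cells in the Cela1 values was not tested.

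**Figure D3:**
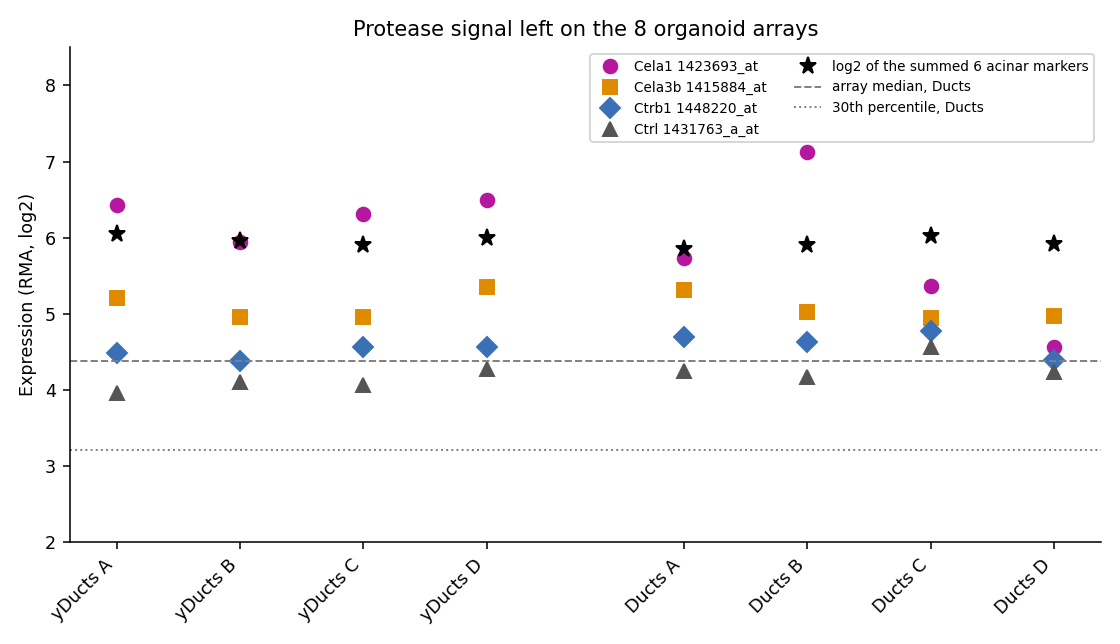
Expression (RMA, log2, vertical axis) of Cela1, Cela3b 1415884_at, Ctrb1 and Ctrl on the 4 yDucts and 4 Ducts arrays, with stars for the log2 sum of the 6 acinar markers and lines at the median and 30th percentile of the Ducts arrays. Cela1 runs from 7.13 on Ducts B to 4.57 on Ducts D and the stars lie between 5.85 and 6.05.

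Other genes tied to zymogens and their secretion were taken from lists chosen with earlier results of these data known. Of 14 other trypsinogens and pancreatic peptidases, 3 had a probe set of their own that was tested, and 3 of 3 were lower in both organoid groups. For this list and the next, the shares of all tested probe sets were 31.6% lower and 39.7% higher in yDucts, and 31.2% and 40% in Ducts. The trypsinogen Prss2 averaged 5.50 ± 0.25 in yDucts, 5.53 ± 0.20 in Ducts and 14.49 ± 0.01 in Acini, 509-fold and 497-fold lower, and 2210010C04Rik was 649-fold and 608-fold lower. The kallikrein gene Klk1 was 2.25-fold and 1.93-fold lower, on a probe set that may also read related kallikreins. Of 10 zymogen granule genes, 8 were lower, 1 higher and 1 not called in each comparison, with median differences of -6.55 in yDucts and -9.30 in Ducts. These 2 medians do not compare the organoid groups. Between yDucts and Ducts the median difference of the 10 genes was 0.05. Only Reg1 was called, higher in yDucts, and 9 were not called, where 2.32% of all tested probe sets were called. The lipase cofactor gene Clps was 1824-fold and 1846-fold lower, the granule membrane gene Gp2 at least 1142-fold and at least 1082-fold, and Cuzd1 at least 1220-fold and at least 1235-fold. Clps averaged 3.32 in yDucts and 3.30 in Ducts, near the background, so its folds hold only for that background. Zg16 was 941-fold and 1033-fold lower and Sycn, the granule protein syncollin, 967-fold and 1020-fold, whereas Itpr3, the calcium release channel of the apical pole, was 6.48-fold and 6.99-fold higher.

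Among trypsin inhibitors and genes of zymogen activation, 5 were tested, of which yDucts had 1 higher and 2 lower and Ducts 1 higher and 3 lower. Of all tested probe sets, 39.7% were called higher and 31.6% lower in yDucts, and 40% and 31.2% in Ducts. The list is small, and these counts are no result about it. Spink1, the inhibitor that acinar cells secrete with trypsinogen, averaged 3.46 ± 0.19 in yDucts, 3.26 ± 0.21 in Ducts and 13.52 ± 0.11 in Acini, 1071-fold and 1230-fold lower, and Serpini2 was at least 1019-fold and at least 1009-fold lower. The Ducts mean of Spink1 lay close to the background of 3.21, so its 1230-fold holds only for that background. Ctsb, the lysosomal cathepsin B that can activate trypsinogen, was 2.10-fold and 1.85-fold higher. Cst3, the cysteine protease inhibitor cystatin C, averaged 11.40 ± 0.06 in yDucts, 10.30 ± 0.16 in Ducts and 11.46 ± 0.21 in Acini, and was higher in yDucts than in Ducts (2.14-fold, adjusted p = 0.00129). The call on Cst3 held with either pair of Ducts arrays (1.20 and 0.99 on the log2 scale). The call on Ctsb depended on the scaling, since 0 genes of the list were called higher under cyclic loess in either organoid group, and 0 under quantile normalization in Ducts. Under cyclic loess 4 of the 5 genes were called lower in yDucts.

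Of 8 acinar transcription factors, 5 were lower, 2 higher and 1 not called in each comparison. Of all tested probe sets, 31.6% were called lower and 39.7% higher in yDucts, and 31.2% and 40% in Ducts. Ptf1a, the acinar subunit of PTF1, averaged 3.32 ± 0.20 in yDucts, 3.14 ± 0.19 in Ducts and 10.23 ± 0.16 in Acini, 121-fold lower in yDucts and at least 127-fold lower in Ducts. The yDucts mean of Ptf1a lay near the background of 3.20, so its 121-fold holds only for that background. Rbpjl was 65.2-fold and 59.6-fold lower, and Bhlha15, which organises the granule-bearing apical cytoplasm, 87.9-fold and 75.6-fold. The widely expressed partners Rbpj (6.75-fold and 8.62-fold) and Tcf3 (4.61-fold and 4.85-fold) were higher. Nr5a2 averaged 6.97 ± 0.17 in yDucts, 3.23 ± 0.25 in Ducts and 9.78 ± 0.11 in Acini, at 7-fold and 93.5-fold lower levels, and it was called higher in yDucts than in Ducts (3.74 ± 0.16, adjusted p = 1.68e-08, and 3.94 against Ducts A and B alone or 3.54 against Ducts C and D alone). Since the Ducts mean of Nr5a2 lay close to the background of 3.21, the sizes of its differences from Ducts hold only for that background. The granule gene Reg1 was also higher in yDucts than in Ducts, 11.98 ± 0.36 against 5.65 ± 1.09 (adjusted p = 1.75e-06), 134-fold against Ducts A and B alone and 47.7-fold against Ducts C and D alone. Over all 8 organoid arrays the protease probe sets differed by at most 0.60, and 4 of the 12 were below background in both groups. Against Ducts C and D alone, Cela1 differed by 1.33.

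**Figure D4:**
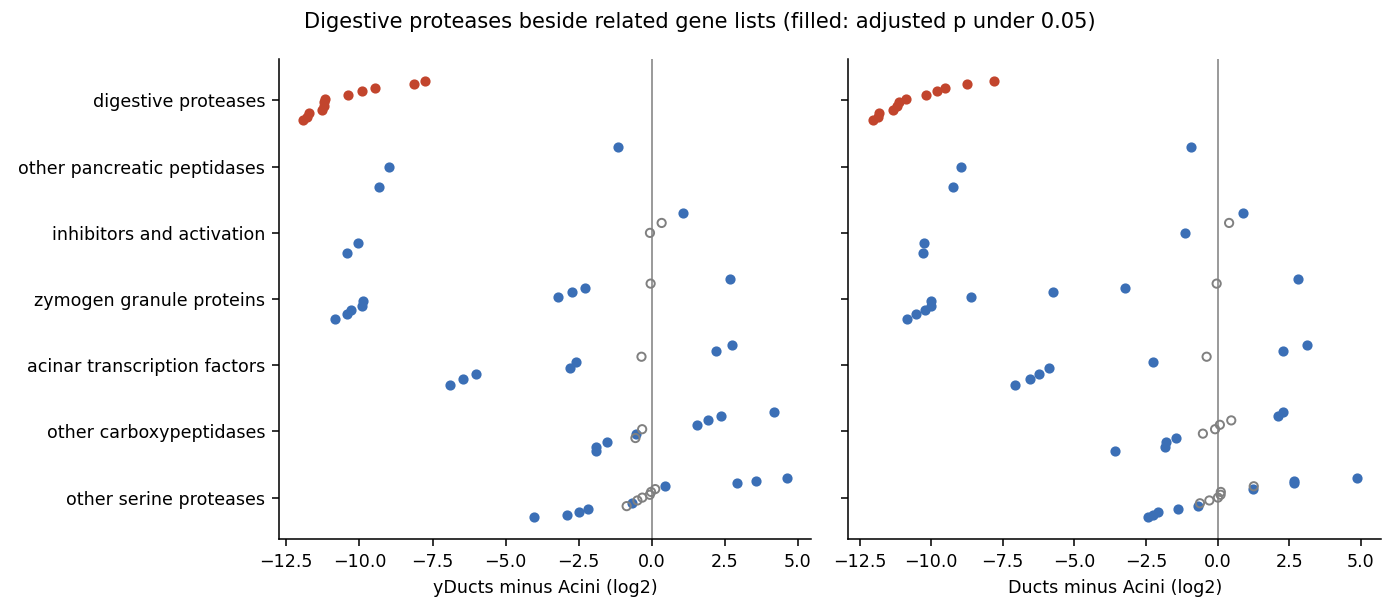
Difference from Acini (log2, horizontal axes) of the 12 protease probe sets (red, top) and of the tested genes of 6 related lists (blue), for yDucts in the left panel and Ducts in the right panel, with 1 point a probe set or gene, filled where the adjusted p was under 0.05. The proteases lie between -11.93 and -7.75 in yDucts and between -12.04 and -7.82 in Ducts, and the other carboxypeptidases and serine proteases on both sides of 0.

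Proteases of the same enzyme families that do not belong to the digestive set were counted in the same way. Of 10 other carboxypeptidase genes tested, 4 were higher and 4 lower in yDucts, where 39.7% and 31.6% of all tested probe sets were, and 2 higher and 4 lower in Ducts, against 40% and 31.2%. Of 15 other serine protease genes tested, 4 were higher and 5 lower in each comparison. Most of these shares lay near the background, the lists are small, and the counts are no result about either family, and the single genes below only describe their range. Cpd, the membrane-bound carboxypeptidase D of the secretory pathway, averaged 10.43 ± 0.26 in yDucts, 8.54 ± 0.90 in Ducts and 6.25 ± 1.28 in Acini, 18.1-fold and 4.87-fold higher. Its fold in Ducts was 7.97 with Ducts A and B alone, 2.98 with Ducts C and D alone and 3.24 without Acini A, its fold in yDucts was 12.0 without Acini A, and under cyclic loess the call in Ducts was lost (adjusted p = 0.0678). Scpep1 was 5.22-fold and 4.30-fold higher (2.61-fold with Ducts A and B alone, 7.10-fold with Ducts C and D alone). Cpm, a membrane-anchored carboxypeptidase, was called higher in yDucts (3.82-fold, adjusted p = 0.0344, 5.99-fold without yDucts B), and the call was lost under quantile normalization (adjusted p = 0.167), under cyclic loess (0.261) and without any 1 of yDucts A, C or D or Acini A, B or D (0.0527 to 0.097). Cpn1, a subunit of the plasma carboxypeptidase N, was 3.79-fold and 11.9-fold lower, and Cpq, an extracellular peptidase, 3.56-fold lower in Ducts. The epithelial protease gene Prss22 was 12.0-fold higher in yDucts and 29.0-fold higher in Ducts (56.6-fold with Ducts A and B alone, 14.9-fold with Ducts C and D alone), and the transmembrane protease gene Tmprss2 7.48-fold and 6.37-fold higher. Plat, the tissue plasminogen activator, was 24.8-fold higher in yDucts. In Ducts it ranged over 5.78 to 11.1 (SD 2.73), which reached into the 5.32 to 5.89 of Acini, and its 6.35-fold difference (adjusted p = 0.0208) rested on Ducts A and B: the call was lost without Ducts A (adjusted p = 0.0676), without Ducts B (0.0582), with Ducts C and D alone (0.21, 1.26-fold) and under quantile normalization (0.0583) or cyclic loess (0.165), and the fold was 32.1 with Ducts A and B alone, 10.5 without Ducts C and 11.3 without Ducts D. Prss23 (16.2-fold and 5.39-fold) and the prostasin gene Prss8 (7.37-fold and 2.63-fold) were lower, and the Prss23 fold in Ducts was 2.69 with Ducts A and B alone, 10.8 with Ducts C and D alone and 8.57 without Ducts B. Between the organoid groups, Prss8 (-1.48, adjusted p = 0.00502) and the matriptase gene St14 (-1.25, adjusted p = 0.00506), whose products act on each other at epithelial surfaces, were lower in yDucts than in Ducts. The call on Prss8 was lost against Ducts A and B alone (-1.12, adjusted p = 0.0649), and that on St14 held against either pair. The counts moved with the scaling. Under quantile normalization 9 serine proteases were lower in yDucts and 2 higher in Ducts, and under cyclic loess 8 and 2. The carboxypeptidases called higher in yDucts were 2 under both scalings, and those in Ducts 1 under cyclic loess.

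To find the genes most like the proteases in profile, each gene was centred on its mean over the 12 arrays and compared by Euclidean distance with the median profile of the protease probe sets, over 18182 other genes. The 8 closest were Cel (distance 0.413), the bile salt-dependent lipase, Clps (0.601), Pnliprp2 (0.652) and Pnliprp1 (1.02), which are lipase-related, Rnase1 (0.692), the pancreatic ribonuclease, Pdia2 (0.913), a pancreas-enriched disulfide isomerase, Cuzd1 (1.17), a zymogen granule membrane gene, and Serpini2 (1.43), a serine protease inhibitor. For comparison, the protease probe sets lay at 0.422 (Prss3) to 5.35 (Ctrc) from their own median, with Cela1 at 4.67. Cel averaged 3.42 ± 0.16 in yDucts, 3.56 ± 0.11 in Ducts and 14.42 ± 0.05 in Acini.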

How the data were processed

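Total RNA of 12 samples was hybridised to 1 array each. Values deposited by the authors are on the log2 scale, 1 a probe set and array with 2 decimals, which the submitters' processing notes credit to RMA (background correction, quantile normalization and median polish). The sources used here give neither its version nor whether the 12 arrays were normalized together. Quantile normalization makes each value relative to the other genes of its array. Of 45101 probe sets, 64 controls were left out. The platform annotation gave 34958 probe sets 1 symbol, 932 several and 9211 none. Symbols of the 9 genes matched the RefSeq table of GRCm38.p6, which also gave the promoters.

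Probe sets above the 30th percentile of their array on at least 4 arrays were tested (33436). Group means were fitted to all 12 arrays with limma 3.58.1 (R 4.3.3; 9 residual and 4.19 prior degrees of freedom) for 3 contrasts, two-sided, with Benjamini-Hochberg adjustment over all tested probe sets and a threshold of 0.05. Where a group averaged below that percentile, its values were raised to the percentile and the fold became a lower limit. Precision is limited by the number of arrays. The members and lists were chosen with earlier results of these data known. The genes named are all members, up to 4 genes a list and comparison with the largest called differences, and the 8 genes of the most similar profile. Genes of the lists, the markers and the profile search were each read from 1 probe set, that with the highest mean over the 12 arrays. Their other probe sets were not examined. Itpr3, Rbpj, Tcf3, Cpa3, Cpa5 and Amy1 were named after their values had been seen. Tmprss15 and other genes below the filter were not analysed here. Alternatives were quantile, cyclic loess and median scaling, other filters and background percentiles, 1 probe set a gene, a replicate block, array weights, and leaving out arrays. Those for the named list genes were chosen after seeing the data. Arrays of the same letter in different groups were not treated as pairs, and their deviations correlated at -0.302 to 0.112. The labels do not say whether the letters pair arrays, and such correlations cannot settle it.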

Additional observations from a re-analysis of the deposited data

Results flagged for a closer look

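Of 36 sets of 4 arrays (12 probe sets in 3 groups), 1 had an array far from the others by Dixon's ratio. For Cpa1 in Acini the ratio was 1, because 3 arrays read 14.60 and Acini B read 14.57. The gap of 0.03 is set by values rounded to 2 decimals. By chance such a flag is raised in about 5% of sets.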

How the results depend on the processing

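Against Acini, all 261 alternative differences in each of the 2 comparisons kept their direction and their call, and 12 of 12 probe sets were called lower in each (9 of 9 with 1 probe set a gene), also with any 1 array left out. Cyclic loess gave the largest differences, for Cela1 -9.27 in yDucts and -9.87 in Ducts. The median over all probe sets moved with the scaling, in Ducts from 0.157 to 0.000625 (quantile), 0.00307 (cyclic loess) and 0.365 (median centring). Limits for probe sets below background moved by less than 1.5-fold with the 20th or 40th percentile (Cpb1 in Ducts at least 3315-fold and 1814-fold). With the replicate block 12, 12 and 0 probe sets were called in yDucts against Acini, Ducts against Acini and yDucts against Ducts, so it changed no call, and 1, 1 and 0 of 4 letters correlated best with their own letter.

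Between yDucts and Ducts, 4 of the 12 probe sets were called with array weights, Cela1, Cpb1, Cela3b 1435611_x_at (-0.54) and Ctrl (-0.34). That is close to the share of all probe sets called under those weights, given above for Cela1, and Cpb1 was below background in both groups. The fit without Ducts A and B called 1, and fits with 1 array left out called 0 to 1 (1 without Ducts B). Small differences changed sign. Cpa1 was -4.92e-05 with array weights and -0.035 to 0.085 with 1 array left out. Cela1 was -0.13 without Ducts C and D and 0.22 to 1.07 with 1 array left out. Cela3b 1415883_a_at was 0.0855 with array weights, 0.26 without Ducts A and B and -0.273 to 0.0867 with 1 array left out. Cela3b 1415884_at was -0.055 without Ducts C and D and -0.0242 to 0.137 with 1 array left out. The cause was not tested. Of the promoter matches, TATAAA lay before the start in 2 genes and after it in the other. Of the genes named from lists, by alternatives chosen after seeing the data, 1 changed sign, Ctsb in Ducts (-0.178 under cyclic loess). Signal near background limits these differences.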
